A study of Mus musculus with 9 samples.

Results

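The 10 genes described here are names that mark macrophages at the borders of the brain (Mrc1, Cd163, Lyve1, Folr2, Pf4, F13a1, Cbr2 and Ms4a7) or blood monocytes (Ly6c2 and Plac8). They were taken by symbol from a deposited table of 18571 genes, and all 10 were found there and passed the filter on low counts, which left 14696 genes for testing. In this mouse series polyadenylated RNA was sequenced from cells that a CD45 antibody had captured on a panning plate from papain-digested cortex and hippocampus. The labels call the cells microglia, while CD45 is carried by all leukocytes. Per the labels, blood had been flushed out by perfusion and the meninges had been taken off before dissection.

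The 3 groups had 3 libraries each, all from mice of 9 months on the C57BL6/j background. The WT group was wild type. The APP/PS1 group carried the amyloid transgenes. The third group, named Cx43 cKO in the plots and cKO in the text, carried APP/PS1 together with Cx3cr1-CreER and with Cx43-flox/flox, so that a tamoxifen-activated recombinase driven by Cx3cr1 deletes connexin 43 (Gja1). Per the labels, tamoxifen at 0.1 mg/g was given by gavage for 5 days at 8 months in all 3 groups, while neither control genotype is given a Cre or floxed allele. Cx3cr1 is expressed in microglia and also in border macrophages and monocytes, so the recombinase is not limited to microglia by its promoter. The labels do not say whether the libraries of a group came from separate mice, so the p-values measure the spread between libraries, which may be technical.

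Border macrophages sit in the meninges, the choroid plexus and the spaces around vessels. They share an origin with microglia and take up material through scavenger and lectin receptors such as those encoded by Mrc1, Cd163 and Lyve1. Monocytes are made in bone marrow and circulate, and the classical kind carries Ly6C on its surface. RNA from a CD45 capture of brain can hold all 3 kinds of cell, and neutrophils and lymphocytes as well.

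Total estimated counts were 18907681 to 19565354 per library. Gja1 was lower in cKO (484 to 539 counts) than in APP/PS1 (688 to 788) and WT (642 to 716), with a log2 change of -0.56 from APP/PS1 (edgeR adjusted p 7.95e-09). Astrocytes also express Gja1. Of 7 astrocyte markers 6 were lower and 0 higher in cKO versus APP/PS1 (median log2 change -0.47), beside 27.7% and 27.3% of all genes. In APP/PS1 versus WT 7 were higher and 0 lower, beside 26.9% and 32%. In cKO versus WT 4 were higher and 2 lower (median 0.12), beside 24.7% and 23%, while Gja1 was lower (-0.32, edgeR adjusted p 7.62e-05). The part of astrocyte RNA in the level of Gja1 was not tested. The Y-linked gene Ddx3y had 0 to 2 counts in the cKO libraries and 4137 to 4538 in the 6 others, so genotype and sex cannot be told apart in any comparison with cKO. The 12 microglial markers summed to 21611 to 21899 CPM (counts scaled to a common library size after TMM normalisation) for WT, 26466 to 26891 CPM for APP/PS1 and 23863 to 24208 CPM for cKO, and none of them was at 0. Of the 12, 8 were higher and 3 lower in APP/PS1 versus WT, beside the shares of all genes given above. In cKO versus APP/PS1 3 were higher and 7 lower, and in cKO versus WT 8 and 4. Among them Cx3cr1 was lower in cKO than in APP/PS1 (log2 change -0.88, edgeR adjusted p 9.07e-21). The tested genes were also sorted into 10 classes of effective transcript length. The shortest class (1470 genes) had median log2 changes of 0.612 for APP/PS1 versus WT, -0.514 for cKO versus APP/PS1 and 0.169 for cKO versus WT, and it holds Folr2, Pf4, Cbr2, Ly6c2 and Plac8.

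The macrophage and monocyte medians lay farthest apart in cKO versus APP/PS1. Of the 8 macrophage genes, 7 were lower in cKO and only F13a1 was higher, and both monocyte genes were higher (edgeR with TMM). With length offsets 6 of the 10 genes were lower and 3 higher, since Folr2 lost its call, and on log2(TPM + 1) 5 were lower and 3 higher, since Mrc1 and Cd163 lost theirs, Cd163 with its sign turned. Over all tested genes 27.3% were called higher and 27.7% lower in that comparison (edgeR quasi-likelihood test, Benjamini-Hochberg adjusted p under 0.05), and 59.7% had libraries that did not overlap between groups, compared with 10 of these 10. The median log2 change was -0.562 for the macrophage genes, 2.51 for the monocyte genes and -0.0115 for all genes, and with length offsets these medians were -0.294, 3.00 and -0.0094. The values are of bulk RNA, in which fewer cells of a type and less RNA per cell cannot be told apart.

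In APP/PS1 versus WT both monocyte genes were lower and the macrophage genes split. Mrc1, Cd163, Lyve1 and F13a1 fell, Folr2, Pf4 and Ms4a7 rose, and Cbr2 was not called. Of the 10 genes 3 were thus higher and 6 lower. With offsets for transcript length 1 was higher and 7 lower, since Pf4 and Folr2 lost their calls, Pf4 with its sign turned, and Cbr2 was called lower. Cbr2 was also called lower in the fit with the replicate number as a block. Among all genes 26.9% were called higher and 32% lower, and 63.5% had groups that did not overlap, against 9 of the 10. The medians were -0.284 for the macrophage genes, -1.80 for the monocyte genes and -0.0359 for all genes (-0.307, -2.43 and -0.0108 with length offsets). For cKO versus WT 7 macrophage genes were lower, Folr2 was not called, and both monocyte genes were higher. There 24.7% of all genes were called higher, 23% lower, and 54.6% did not overlap, against 8 of the 10. The medians were -0.623, 0.709 and -0.00863 (-0.567, 0.576 and 0.0069 with length offsets). The comparisons share libraries pairwise, so their counts are not independent.

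**Figure D1:**
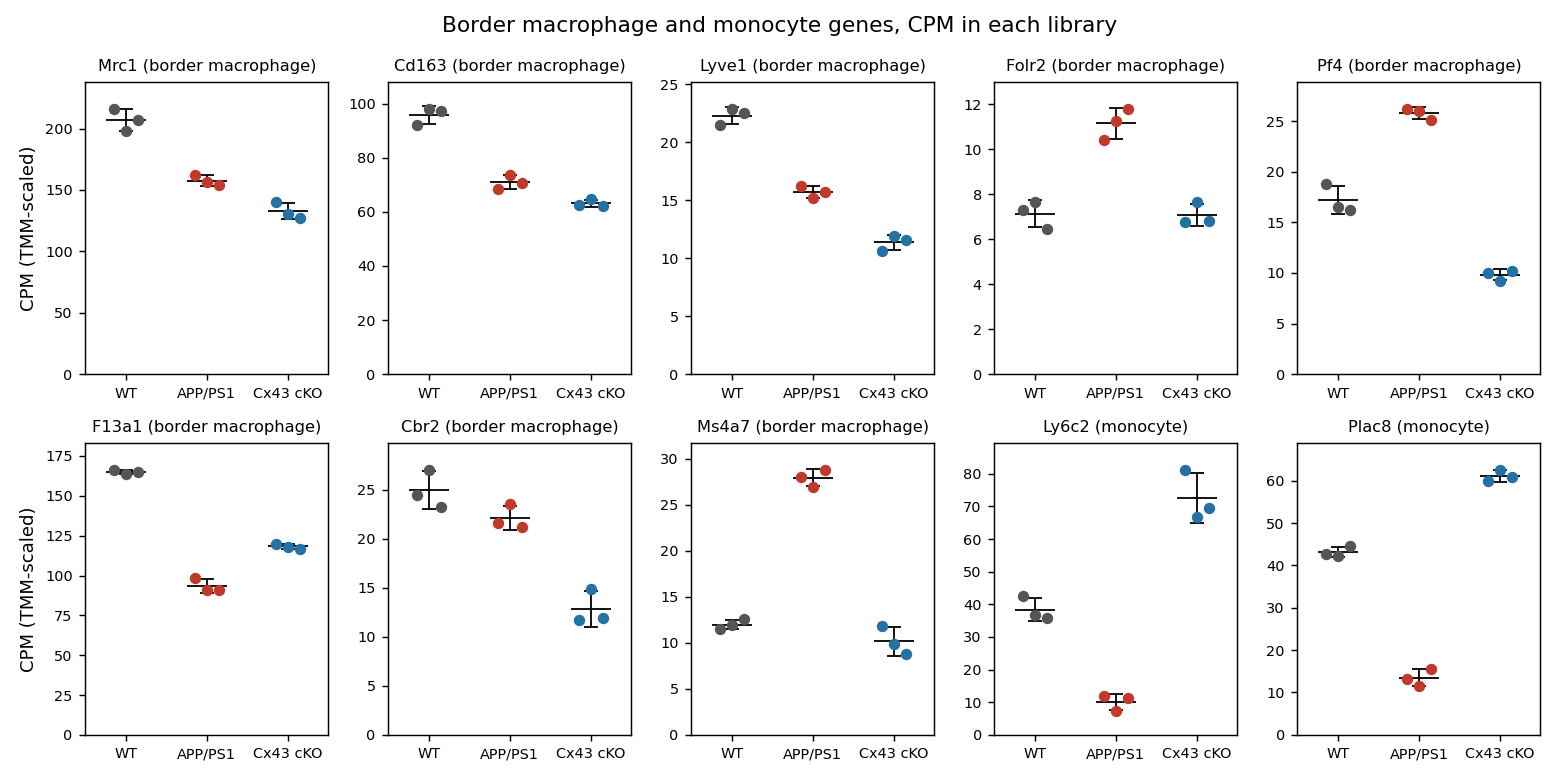
CPM (TMM-scaled, vertical axes starting at 0) of the 10 genes in the 9 libraries. Points are libraries, and bars are the mean and SD of 3 libraries. Ly6c2 and Plac8 are lowest in APP/PS1 and highest in cKO, whereas Mrc1, Cd163 and Lyve1 are highest in WT and lowest in cKO (on the TPM scale Cd163 is not lowest in cKO).

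Mrc1 encodes the mannose receptor CD206, the most used marker that separates border macrophages from microglia. It lies on chromosome 2 at 14229414 to 14332023 (GRCm38.p6). Its level was 216, 198 and 207 CPM in WT libraries 1 to 3, 162, 157 and 154 CPM in APP/PS1, and 140.02, 130.4 and 127 CPM in cKO. No library of any group reached into another group. Mrc1 was lower in APP/PS1 than in WT (log2 change -0.39, SE 0.04, edgeR adjusted p 1.09e-09) and fell by 0.25 on the log2 scale in cKO versus APP/PS1 (SE 0.04, edgeR adjusted p 4.81e-06). Against WT the log2 change in cKO was -0.64 (SE 0.04, edgeR adjusted p 1.18e-13).

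Cd163 encodes the scavenger receptor that takes up haemoglobin bound to haptoglobin. It was at 92.0, 98.1 and 97.2 CPM for WT, 68.6, 73.6 and 70.7 CPM for APP/PS1 and 62.5, 64.6 and 62.2 CPM for cKO. The order of the groups was that of Mrc1, again with no overlap. The log2 change was -0.43 in APP/PS1 versus WT (SE 0.04, edgeR adjusted p 6.51e-10), -0.17 in cKO versus APP/PS1 (SE 0.04, edgeR adjusted p 0.00139) and -0.60 in cKO versus WT (SE 0.04, edgeR adjusted p 1.90e-12). The middle step depended on the scaling for both receptors. On log2(TPM + 1) it was 0.029 for Cd163 (limma adjusted p 0.547), with the sign turned, and -0.055 for Mrc1 (limma adjusted p 0.321). That scale also moved the median of all genes in this comparison, to 0.145 from -0.0115 with TMM. The other comparisons of these receptors kept their calls and their sign with each scaling run, but the change in APP/PS1 versus WT was larger on log2(TPM + 1), at -0.78 for Mrc1 (limma adjusted p 4.30e-08) and -0.81 for Cd163 (limma adjusted p 1.04e-08). There the median of all genes was -0.349, against -0.0359 with TMM.

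Lyve1 encodes a hyaluronan receptor of perivascular and meningeal macrophages that lymphatic endothelium also carries. Its CPM was 21.5, 22.9 and 22.5 for WT, 16.2, 15.2 and 15.7 for APP/PS1 and 10.6, 11.9 and 11.6 for cKO. It fell by 0.50 on the log2 scale in APP/PS1 versus WT (SE 0.07, edgeR adjusted p 2.29e-07) and by a further 0.47 in cKO versus APP/PS1 (SE 0.07, edgeR adjusted p 6.13e-06). Between cKO and WT the log2 change was -0.97 (SE 0.07, edgeR adjusted p 4.71e-12). The libraries of the 3 groups formed separate steps. On log2(TPM + 1) the first of these changes was -0.84 (limma adjusted p 8.20e-08) and the second -0.25 (limma adjusted p 0.00176). The 9 endothelial and lymphatic markers summed to 460.4 to 472 CPM for WT, 486 to 494 CPM for APP/PS1 and 361 to 374 CPM for cKO, but without Ly6c1, which was higher in APP/PS1, the other 8 summed to 389 to 401 CPM, 377 to 384 CPM and 324 to 332 CPM. Of the 9, 4 were lower and 1 higher in APP/PS1 versus WT, 5 lower and 0 higher in cKO versus APP/PS1, and 7 lower and 0 higher in cKO versus WT, beside 32%, 27.7% and 23% of all genes called lower. The part of these cells in the level of Lyve1 was not tested.

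Cbr2, a carbonyl reductase gene that is strongly expressed in border macrophages, was lower in cKO than in the other groups, which overlapped. Its level was 24.5, 27.0 and 23.3 CPM for WT, 21.6, 23.5 and 21.2 CPM for APP/PS1, and 11.7, 14.9 and 11.9 CPM for cKO. All 3 libraries of cKO lay below the 6 others. The log2 change was -0.17 in APP/PS1 versus WT (SE 0.07, edgeR adjusted p 0.0501), -0.78 in cKO versus APP/PS1 (SE 0.09, edgeR adjusted p 3.26e-08) and -0.96 in cKO versus WT (SE 0.08, edgeR adjusted p 7.93e-10). The first of these stood at the threshold. With the replicate number as a block it was -0.17 (edgeR adjusted p 0.00604). It passed, with the same sign, in 14 of 24 alternatives. These include the fits without APP/PS1 replicate 2 (-0.22, edgeR adjusted p 0.0313), WT replicate 3 (-0.22, edgeR adjusted p 0.0262), cKO replicate 1 (-0.17, edgeR adjusted p 0.0417) or cKO replicate 2 (-0.17, edgeR adjusted p 0.028). Without WT replicate 2 it was -0.11 (edgeR adjusted p 0.252), the smallest change and the highest adjusted p over the alternatives. With offsets for transcript length it was -0.80 (edgeR adjusted p 1.03e-09), while the step from APP/PS1 to cKO shrank to -0.29 (edgeR adjusted p 0.00462).

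F13a1 encodes the A subunit of coagulation factor XIII, which border macrophages, classical monocytes and platelets express. It lies on chromosome 13 and was the macrophage gene that rose in cKO versus APP/PS1. WT libraries had 166, 164 and 165 CPM, APP/PS1 libraries 98.3, 90.8 and 91.1 CPM, and cKO libraries 119.6, 118 and 117 CPM. cKO thus lay between the other groups, with no overlap. The log2 change was -0.82 in APP/PS1 versus WT (SE 0.04, edgeR adjusted p 6.93e-17), 0.34 in cKO versus APP/PS1 (SE 0.04, edgeR adjusted p 1.10e-08) and -0.48 in cKO versus WT (SE 0.03, edgeR adjusted p 6.29e-12).

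Folr2, Pf4 and Ms4a7 were highest in APP/PS1. Ms4a7, a tetraspanning membrane protein gene that is much higher in border macrophages than in resting microglia, was at 11.5, 11.9 and 12.5 CPM for WT, 28.02, 26.96 and 28.8 CPM for APP/PS1 and 11.9, 9.83 and 8.81 CPM for cKO. APP/PS1 was 2.33-fold above WT (log2 change 1.22, SE 0.08, edgeR adjusted p 1.78e-13), and cKO was 2.75-fold below APP/PS1 (log2 change -1.46, SE 0.08, edgeR adjusted p 1.26e-14). cKO and WT overlapped, and their log2 change of -0.24 (SE 0.09, edgeR adjusted p 0.0329) depended on single libraries. It was -0.14 without cKO replicate 3 (edgeR adjusted p 0.231), and it also missed the threshold without cKO replicate 2 (-0.21, edgeR adjusted p 0.102), without WT replicate 2 (-0.24, edgeR adjusted p 0.0619), without WT replicate 3 (-0.20, edgeR adjusted p 0.12) and with the size factors of DESeq2 (-0.21, edgeR adjusted p 0.0554). DESeq2's own test gave -0.21 (DESeq2 adjusted p 0.132). The higher level in APP/PS1 kept its call with length offsets, at 1.02 (edgeR adjusted p 1.44e-11).

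Pf4 encodes platelet factor 4, a chemokine of platelets and megakaryocytes that border macrophages also express. Its CPM was 18.8, 16.6 and 16.2 for WT, 26.2, 26.05 and 25.1 for APP/PS1 and 10.01, 9.21 and 10.2 for cKO. All 3 groups were apart, with APP/PS1 above and cKO below WT. The log2 change was 0.59 in APP/PS1 versus WT (SE 0.07, edgeR adjusted p 1.79e-08), -1.39 in cKO versus APP/PS1 (SE 0.07, edgeR adjusted p 6.25e-15) and -0.81 in cKO versus WT (SE 0.08, edgeR adjusted p 1.94e-09). The rise in APP/PS1 was no larger than the median of 0.612 in its length class, and with length offsets it was -0.036 (edgeR adjusted p 0.664), with the sign turned. The decrease from APP/PS1 to cKO kept its call there at -0.90 (edgeR adjusted p 1.02e-10).

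The 8 platelet and megakaryocyte markers, cells that also express Pf4, summed to 52.5 to 54.3 CPM for WT, 36.9 to 38.2 CPM for APP/PS1 and 24.8 to 25.5 CPM for cKO. In APP/PS1 versus WT 5 of 8 were called lower and none higher, with the same counts under length offsets. For cKO versus APP/PS1 6 of 8 were lower and 0 higher, and with length offsets 5 were lower and 1 higher. Of all genes 32% were lower and 26.9% higher in the first comparison, and 27.7% and 27.3% in the second. Ppbp, a chemokine of platelets chosen here after its values were seen, had 216 to 247 counts for WT, 129 to 149 for APP/PS1 and 12 to 17 for cKO. Gp9, the most abundant marker of the list in APP/PS1 and cKO, was not called in any comparison. It was at 9.59 CPM for WT, 9.54 CPM for APP/PS1 and 9.12 CPM for cKO on average.

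Folr2 encodes folate receptor beta, a marker of long-lived tissue macrophages. It was at 7.29, 7.64 and 6.46 CPM for WT, 10.4, 11.2 and 11.8 CPM for APP/PS1 and 6.78, 7.64 and 6.83 CPM for cKO. APP/PS1 stood above the other groups, which overlapped. The log2 change was 0.65 in APP/PS1 versus WT (SE 0.09, edgeR adjusted p 1.57e-06), -0.66 in cKO versus APP/PS1 (SE 0.10, edgeR adjusted p 1.80e-06) and -0.0094 in cKO versus WT (SE 0.10, edgeR adjusted p 0.95). On log2(TPM + 1) the last was called lower, at -0.19 (limma adjusted p 0.0314). With length offsets neither change passed, at 0.024 (edgeR adjusted p 0.847) and -0.17 (edgeR adjusted p 0.148). Annotated exons of Folr2 also overlap those of Gm10602 on the opposite strand over 975 bases, and 52.6% of the 1585 stretches of 50 bases in Folr2 transcripts occur in that gene as well. Whether the counting used strand is not given in the sources used here, so the source of part of the Folr2 reads is uncertain.

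**Figure D2:**
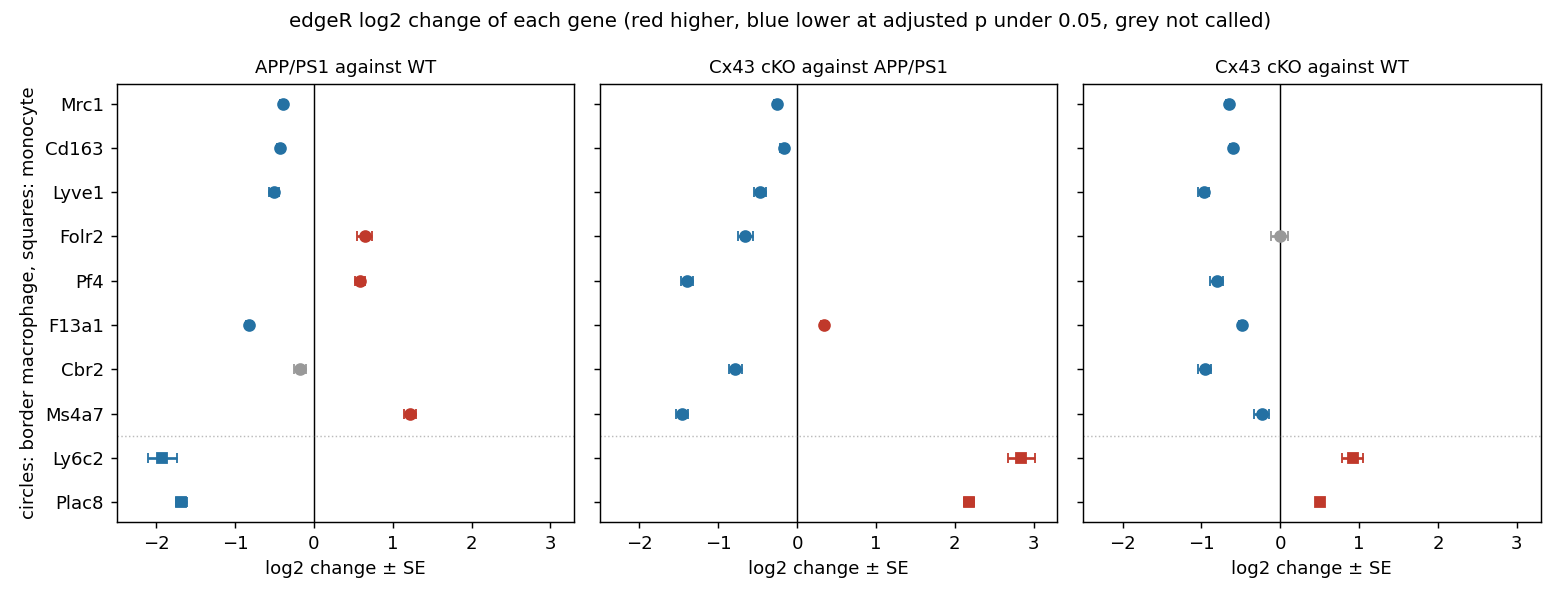
The log2 change of each gene (horizontal axis, with its SE) in the 3 comparisons, from the edgeR fit on all 9 libraries. Circles are macrophage genes and squares monocyte genes. For cKO versus APP/PS1 the squares lie at 2.84 and 2.18, and 7 of the 8 circles lie below 0 (that of Cd163 is above 0 on the TPM scale, and that of Pf4 for APP/PS1 versus WT is below 0 with length offsets).

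Ly6c2 encodes Ly6C2, the surface protein by which classical monocytes are recognised, and is also expressed by myeloid progenitors and some lymphocytes. Its counts were 853, 746 and 732 for WT, 219, 134 and 207 for APP/PS1 and 1534, 1278 and 1332 for cKO. On the CPM scale this was 42.6, 36.8 and 35.8 for WT, 11.96, 7.21 and 11.2 for APP/PS1 and 81.3, 66.8 and 69.4 for cKO. The 3 groups were far apart, although the APP/PS1 libraries were spread, with library 2 lowest. APP/PS1 was 3.80-fold below WT (log2 change -1.93, SE 0.18, edgeR adjusted p 8.13e-05). cKO was 7.17-fold above APP/PS1 (log2 change 2.84, SE 0.17, edgeR adjusted p 6.15e-06) and 1.89-fold above WT (0.92, SE 0.13, edgeR adjusted p 0.00108).

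Plac8 encodes a small cysteine-rich protein found in monocytes, neutrophils and their progenitors. Its counts were 855, 857 and 908 for WT, 242, 215 and 289 for APP/PS1 and 1129, 1197 and 1166 for cKO. The corresponding levels were 42.7, 42.2 and 44.5 CPM, 13.2, 11.6 and 15.6 CPM, and 59.8, 62.6 and 60.8 CPM. As for Ly6c2, each cKO library exceeded each WT library, and each APP/PS1 library lay below both. The log2 change was -1.68 in APP/PS1 versus WT (SE 0.07, edgeR adjusted p 2.47e-17), 2.18 in cKO versus APP/PS1 (SE 0.07, edgeR adjusted p 3.84e-20) and 0.50 in cKO versus WT (SE 0.05, edgeR adjusted p 1.30e-08). With length offsets the first 2 changes were larger for both genes, -2.55 and 3.33 for Ly6c2 and -2.30 and 2.67 for Plac8, and the third was smaller, 0.78 for Ly6c2 (edgeR adjusted p 0.00287) and 0.37 for Plac8 (edgeR adjusted p 3.73e-06).

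Ly6c2 has a close copy, Ly6c1, a marker of brain endothelium. Of 2733 stretches of 50 bases (the read length) in Ly6c2 transcripts, 395 (14.5%) also occur in transcripts of other genes, most of them in Ly6c1, and how such reads were assigned is not given in the sources used here. Ly6c1 moved against Ly6c2 in each comparison. It was at 71.5 CPM ± 1.36 for WT, 109 CPM ± 8.04 for APP/PS1 and 40.97 CPM ± 3.79 for cKO (SD, n = 3), with log2 changes of 0.60 in APP/PS1 versus WT (edgeR adjusted p 2.56e-08), -1.41 in cKO versus APP/PS1 (edgeR adjusted p 3.88e-13) and -0.80 in cKO versus WT (edgeR adjusted p 3.56e-09). Among the other genes Cbr2 shared 12.1% of its stretches with Gm11771, and Mrc1, Lyve1, Pf4 and Plac8 shared none.

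The sequence before the start of transcription is shown for the receptor genes Mrc1 and Cd163, whose levels moved alike, and for the monocyte genes. RefSeq promoters on GRCm38.p6 matched 9 of the 10 genes, all but Lyve1. The stretches run 5′ to 3′ and end before the outermost annotated start of the gene. Capitals mark GAGGAA on either strand, which is the core of the element bound by PU.1, a transcription factor of all myeloid cells.
Mrc1, chr2:14229164-14229413, plus strand: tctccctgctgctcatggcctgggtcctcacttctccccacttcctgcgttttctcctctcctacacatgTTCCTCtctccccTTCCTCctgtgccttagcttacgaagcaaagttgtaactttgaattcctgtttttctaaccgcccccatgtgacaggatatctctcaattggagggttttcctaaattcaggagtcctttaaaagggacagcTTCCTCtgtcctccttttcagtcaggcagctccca
Cd163, chr6:124304401-124304635, plus strand: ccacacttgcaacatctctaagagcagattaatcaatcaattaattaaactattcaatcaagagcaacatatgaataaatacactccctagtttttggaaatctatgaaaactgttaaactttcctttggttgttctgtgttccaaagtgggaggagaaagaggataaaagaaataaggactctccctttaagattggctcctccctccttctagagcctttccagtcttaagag
Ly6c2, chr15:75112067-75112221, minus strand: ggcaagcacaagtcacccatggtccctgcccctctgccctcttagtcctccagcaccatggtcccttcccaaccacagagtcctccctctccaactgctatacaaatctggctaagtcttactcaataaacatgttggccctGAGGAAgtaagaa
Plac8, chr5:100572254-100572455, minus strand: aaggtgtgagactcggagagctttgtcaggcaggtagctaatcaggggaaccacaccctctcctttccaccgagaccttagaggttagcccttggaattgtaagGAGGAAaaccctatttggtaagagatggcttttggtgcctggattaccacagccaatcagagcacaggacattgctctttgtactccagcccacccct

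Mrc1 held 3 such matches, Ly6c2 and Plac8 held 1 each, and Cd163 held 0 in the stretches shown. In the 250 bases before the listed start, GAGGAA was found for 6 of the 9 genes and in 23.1% of 27025 RefSeq promoters. TTNNGCAA, a form of the C/EBP element searched on either strand, was found for 1 of 9 genes (Pf4) and in 9.55% of promoters. TGCTGA, also searched, was found for 1 of 9 genes (Folr2) and in 15.8% of promoters. These are matches of letters and not measured binding, and the receptor genes, which moved alike, differed in the first of them.

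Between genes, levels were compared per length, as TPM (abundance scaled to transcript length and library total). In WT the monocyte genes were the highest, with Plac8 at 155 TPM ± 4.44 and Ly6c2 at 115 TPM ± 11.1 (SD, n = 3). F13a1 (101.6 TPM ± 0.97), Mrc1 (92.7 TPM ± 4.11), Pf4 (75.1 TPM ± 6.24), Cbr2 (60.5 TPM ± 4.85) and Cd163 (52.2 TPM ± 1.29) followed. Ms4a7 (21.9 TPM ± 0.98), Lyve1 (20.5 TPM ± 0.65) and Folr2 (16.3 TPM ± 1.34) were lowest, and the highest library of Lyve1 (21.01 TPM) nearly met the lowest of Ms4a7 (21.03 TPM). No neighbours in this order overlapped in WT.

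In APP/PS1 the order changed. Pf4 led at 85.8 TPM ± 1.98, before Mrc1 at 53.7 TPM ± 1.46, and Plac8 (36.7 TPM ± 5.61) and Ly6c2 (23.0 TPM ± 5.79) fell to the lower ranks (SD, n = 3). F13a1, Cbr2, Ms4a7 and Plac8, between 31.4 and 46.1 TPM in single libraries, overlapped with their neighbours, as did Ly6c2 and Folr2 (19.4 TPM ± 1.12), and Lyve1 was last at 11.02 TPM ± 0.38. In cKO the monocyte genes led again, with Plac8 at 190.4 TPM ± 3.17 and Ly6c2 at 189 TPM ± 20.2, whose libraries overlapped. F13a1 came next at 63.4 TPM ± 0.83, before Mrc1 (51.7 TPM ± 2.67) and Pf4 (37.4 TPM ± 2.12). Cd163 (30.02 TPM ± 0.74) overlapped with Cbr2 (27.3 TPM ± 3.90), and Ms4a7 (16.2 TPM ± 2.58) with Folr2 (14.1 TPM ± 0.91), and Lyve1 was last at 9.11 TPM ± 0.51 (SD, n = 3).

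The summed TPM of the 8 macrophage genes was set against that of the 2 monocyte genes in the same library, which needs no scaling between libraries. The macrophage sum was 441 TPM ± 8.13 for WT, 323 TPM ± 3.59 for APP/PS1 and 249 TPM ± 5.38 for cKO (SD, n = 3). The monocyte sum was 269.7 TPM ± 10.3, 59.7 TPM ± 10.6 and 379.5 TPM ± 17.3. Their ratio was 1.60 to 1.69 in the WT libraries, 4.69 to 6.77 in APP/PS1 and 0.633 to 0.685 in cKO. Both monocyte genes lie in the shortest length class, whose median shifted between groups, and a ratio with length offsets was not run. The ratio is a score over chosen genes and was not tested. Its log2 mean was 0.71 ± 0.04 for WT, 2.45 ± 0.28 for APP/PS1 and -0.61 ± 0.06 for cKO (SD, n = 3), and the order of the groups was the same with summed CPM, with F13a1 counted among the monocyte genes, without Plac8 and with the mean of log2(TPM + 0.1).

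**Figure D3:**
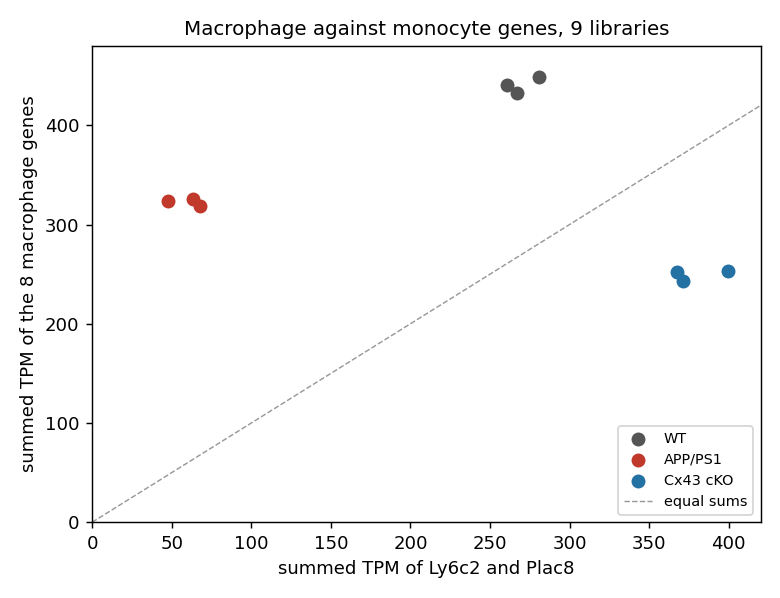
Summed TPM of the 8 macrophage genes (vertical axis) against that of Ly6c2 and Plac8 (horizontal axis), a point for each of the 9 libraries, with a dashed line where the sums are equal. The APP/PS1 libraries lie far above the line at 59.7 TPM of monocyte genes on average, and the cKO libraries lie below it.

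A longer list of 26 border macrophage genes, none of them among the 10, was also read from the fit. In APP/PS1 versus WT 8 were higher and 11 lower, in cKO versus APP/PS1 5 were higher and 17 lower, and in cKO versus WT 2 were higher and 21 lower. Over all genes the shares called higher and lower were 26.9% and 32%, 27.3% and 27.7%, and 24.7% and 23%, so that the first of these counts lay near the background. The medians were 0.0022, -0.415 and -0.486. With length offsets the first comparison had 9 higher and 14 lower, with a median of -0.157, the second 6 higher and 17 lower, with a median of -0.186, and the third 2 higher and 19 lower, with a median of -0.471. The list summed to 1898 to 1948 CPM for WT, 1830.5 to 1842 CPM for APP/PS1 and 1683 to 1713 CPM for cKO. Stab1, a scavenger receptor gene of the list, was at 448 CPM ± 9.76 for WT, 371 CPM ± 6.54 for APP/PS1 and 349 CPM ± 5.77 for cKO (SD, n = 3).

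The members of that list with the largest changes are given next. In APP/PS1 versus WT the largest rises were in Ccl8 (log2 change 1.05, edgeR adjusted p 1.26e-13), a chemokine gene, and Clec4n (0.90, edgeR adjusted p 1.55e-10), a lectin gene, and the largest falls in the lectin gene Mgl2 (-0.94, edgeR adjusted p 1.06e-10) and in Tgfbi (-0.85, edgeR adjusted p 2.14e-16), a matrix protein gene. For cKO versus APP/PS1 Tgfbi rose (0.84, edgeR adjusted p 3.12e-16) and so did Cd38 (0.37, edgeR adjusted p 4.89e-05), while Ccl8 (-1.73, edgeR adjusted p 2.53e-17) and the lectin gene Cd209f (-1.71, edgeR adjusted p 3.93e-15) fell most. The other 3 that rose, named after their values were seen, were Siglec1 (0.22), Igfbp4 (0.21) and Slc40a1 (0.20). Ccl8 was highest in APP/PS1 and lowest in cKO, with 14.8 CPM ± 0.66 for WT, 30.6 CPM ± 1.69 for APP/PS1 and 9.21 CPM ± 0.46 for cKO (SD, n = 3). With length offsets its changes were 0.42 in APP/PS1 versus WT (edgeR adjusted p 5.10e-06) and -1.24 in cKO versus APP/PS1 (edgeR adjusted p 1.15e-13). Against WT, the largest rises in cKO were in Gas6 (0.25, edgeR adjusted p 1.34e-07) and Cd38 (0.19, edgeR adjusted p 0.0204). The largest falls were in Cd209f (-1.49, edgeR adjusted p 1.51e-13) and Timd4 (-1.41, edgeR adjusted p 3.14e-06), a receptor gene of long-lived macrophages.

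The monocyte genes were extended with a list of 23. In APP/PS1 versus WT 3 were higher and 17 lower, in cKO versus APP/PS1 20 were higher and 1 lower, and in cKO versus WT 16 were higher and 4 lower, with medians of -1.14, 1.67 and 0.677. The shares of all genes called higher and lower were 26.9% and 32%, 27.3% and 27.7%, and 24.7% and 23%. With length offsets the counts of the list were 2 higher and 19 lower, 20 higher and 1 lower, and 15 higher and 2 lower, with medians of -1.22, 1.77 and 0.714. Among those that fell in APP/PS1 versus WT was Napsa (-2.29, edgeR adjusted p 1.57e-18), an aspartic protease gene. The 3 that were higher were Lyz2 (1.16, edgeR adjusted p 2.95e-22), a lysozyme gene that microglia near amyloid also express, Ace (0.36, edgeR adjusted p 3.25e-05) and S100a4 (0.28, edgeR adjusted p 0.00978), the last named after its values were seen. With length offsets the sign of S100a4 turned, to -0.34 (edgeR adjusted p 0.0028), and Lyz2 was at 0.54 (edgeR adjusted p 3.01e-15). For cKO versus APP/PS1 Ifitm6 rose 12.6-fold (edgeR adjusted p 1.80e-27) and Gpr141 10.6-fold (edgeR adjusted p 1.37e-18), and Ace alone fell (-0.55, edgeR adjusted p 9.60e-08). Against WT, the largest rises in cKO were in Ifitm6 (1.94, edgeR adjusted p 3.48e-23) and S100a6 (1.92, edgeR adjusted p 2.75e-21). The largest falls were in Thbs1 (-0.30, edgeR adjusted p 1.63e-09) and Eno3 (-0.20, edgeR adjusted p 0.00176). Ace (-0.19, edgeR adjusted p 0.0233) and Fn1 (-0.085, edgeR adjusted p 0.0418), named after their values were seen, made up the 4, and both lost their calls with length offsets (-0.14, edgeR adjusted p 0.101, and -0.024, edgeR adjusted p 0.61).

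Ccr2, the chemokine receptor by which classical monocytes leave the marrow, was named after its values were seen. It was at 35.4 CPM ± 1.502 for WT, 16.1 CPM ± 1.98 for APP/PS1 and 42.0 CPM ± 2.05 for cKO (SD, n = 3). Its order matched that of Ly6c2, but the step from APP/PS1 to cKO was smaller, 2.62-fold (edgeR adjusted p 2.32e-15), and that from WT to cKO was 1.19-fold (edgeR adjusted p 0.00101). The gap between Ccr2 and Ly6c2 itself was not tested.

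Neutrophil markers moved with the monocyte genes in APP/PS1 versus WT and in cKO versus APP/PS1, but were split in cKO versus WT. All 16 were lower in APP/PS1 than in WT, beside 32% of all genes. In cKO versus APP/PS1 all 16 were higher, beside 27.3%. In cKO versus WT 11 were higher and 4 lower, beside 24.7% and 23% (edgeR adjusted p under 0.05). Those 4, named after their values were seen, were Mpo (log2 change -0.69), Elane (-0.79), Prtn3 (-0.40) and Ctsg (-0.85). The 16 markers summed to 3990 to 4049 CPM for WT, 1480 to 1549 CPM for APP/PS1 and 10277 to 10402 CPM for cKO, with none at 0 in any group. Csf3r made up 542 CPM of the APP/PS1 sum on average, and was at 687 CPM for WT and 701 CPM for cKO. Plac8, Chil3 and several other genes of the monocyte lists are also expressed by neutrophils or their progenitors, and the part of such cells in the levels of Ly6c2 and Plac8 was not tested.

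The neutrophil marker with the highest CPM, a scale that does not account for length, was S100a9 in WT (750.4 CPM ± 20.0), Csf3r in APP/PS1 (542 CPM) and Ngp in cKO (2318 CPM), where S100a9 stood at 2186 CPM ± 94.5 (SD, n = 3). Chil3, of the monocyte list and named after its values were seen, was at 203 CPM ± 5.87 for WT, 42.5 CPM ± 1.11 for APP/PS1 and 437 CPM ± 10.4 for cKO (SD, n = 3), a step of 10.3-fold between the last groups.

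Markers of further cell types were read in the same way. The 7 B cell markers summed to 44.7 to 48.2 CPM for WT, 19.8 to 21.8 CPM for APP/PS1 and 29.2 to 30.9 CPM for cKO, led by Ebf1, and the 9 dendritic cell markers to 63.6 to 64.3, 52.2 to 54.96 and 56.7 to 60.9 CPM, led by Ccr7. The T and NK cell markers, 8 of the 9 listed, summed to 35.1 to 37.5, 59.4 to 60.4 and 39.1 to 40.8 CPM, with the highest sums in APP/PS1. Erythroid markers (7 genes) summed to 1190.3 to 1247 CPM for WT, 248 to 275 CPM for APP/PS1 and 95.9 to 106 CPM for cKO. All 7 were lower in APP/PS1 and in cKO than in WT, beside 32% and 23% of all genes. For APP/PS1 versus WT, 6 of 7 B cell markers were lower, dendritic markers were 3 higher and 3 lower of 9, near the 26.9% and 32% of all genes, and 5 of the 7 tested T and NK markers were higher. For cKO versus APP/PS1 these counts were 5 B cell markers higher, dendritic markers 3 higher and 2 lower, and 6 T and NK markers lower, beside 27.3% of all genes higher and 27.7% lower. With length offsets the T and NK markers were 4 higher and 2 lower in the first comparison and 1 higher and 3 lower in the second. Astrocyte markers (7 genes) summed to 433 to 444, 630.03 to 650.4 and 485 to 496 CPM.

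**Figure D4:**
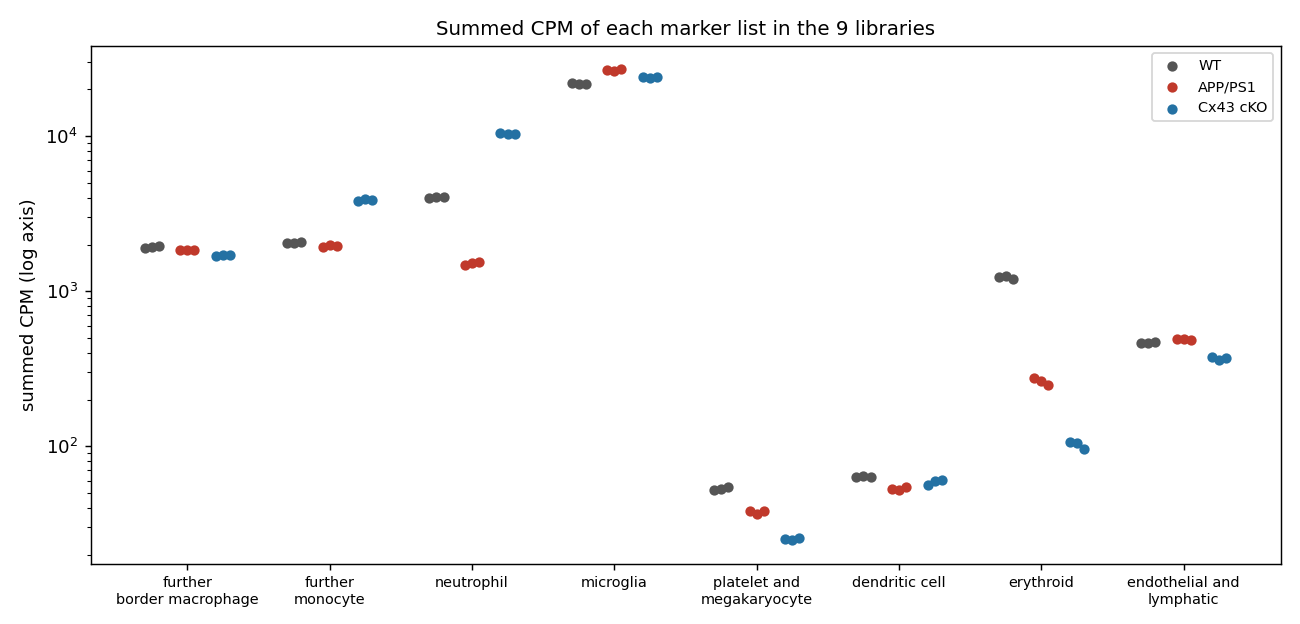
Summed CPM (log axis) of 8 marker lists in the 9 libraries, coloured by group. The further border macrophage list stays between 1683 and 1948 CPM, while the neutrophil list runs from 1480 CPM in APP/PS1 to 10402 CPM in cKO.

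Genes with the pattern most like Mrc1 and Ly6c2 were sought among 13592 tested genes with a mean of at least 1 CPM. Likeness was the root mean square difference of log2 CPM, centred on each gene's mean, over the 9 libraries. For Mrc1 the closest were Itih5 (0.0297), Filip1l (0.0475), Plcd1 (0.0476), Ecm2 (0.0523) and Nova1 (0.0536). Of the other 9 genes studied here Cd163 was nearest, at rank 32 with 0.0819, and Lyve1 followed at rank 608 with 0.162, while Ms4a7 stood at rank 12600 with 0.689. Itih5, a secreted protein gene, was at 67.4 CPM for WT, 49.5 CPM for APP/PS1 and 43.2 CPM for cKO on average.

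For Ly6c2 the closest were Clec4e (0.180), Ly6a2 (0.212), Gapt (0.215), Depdc1b (0.220) and Trem1 (0.221). Clec4e, a lectin receptor gene of monocytes, neutrophils and macrophages, was at 47.5 CPM for WT, 13.8 CPM for APP/PS1 and 102 CPM for cKO on average, and Trem1, a receptor gene of monocytes and neutrophils, at 49.8, 12.7 and 108 CPM. Plac8 stood at rank 39 with 0.325. F13a1 was the macrophage gene nearest to Ly6c2, at rank 1257 with 1.05. With 3 groups of tight libraries this measure largely compares group means.

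The scaling between libraries shifted all genes together. With library totals in place of TMM the median log2 change of all genes was -0.173 in APP/PS1 versus WT and -0.116 in cKO versus WT, and on log2(TPM + 1) it was -0.349, 0.145 and -0.17 in APP/PS1 versus WT, cKO versus APP/PS1 and cKO versus WT. Against these shifts the log2 changes of Ly6c2 ran from -2.55 to -1.73, 2.65 to 3.33 and 0.71 to 1.00 over the 24 alternatives, and those of Plac8 from -2.30 to -1.58, 2.08 to 2.67 and 0.30 to 0.53.

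**Figure D5:**
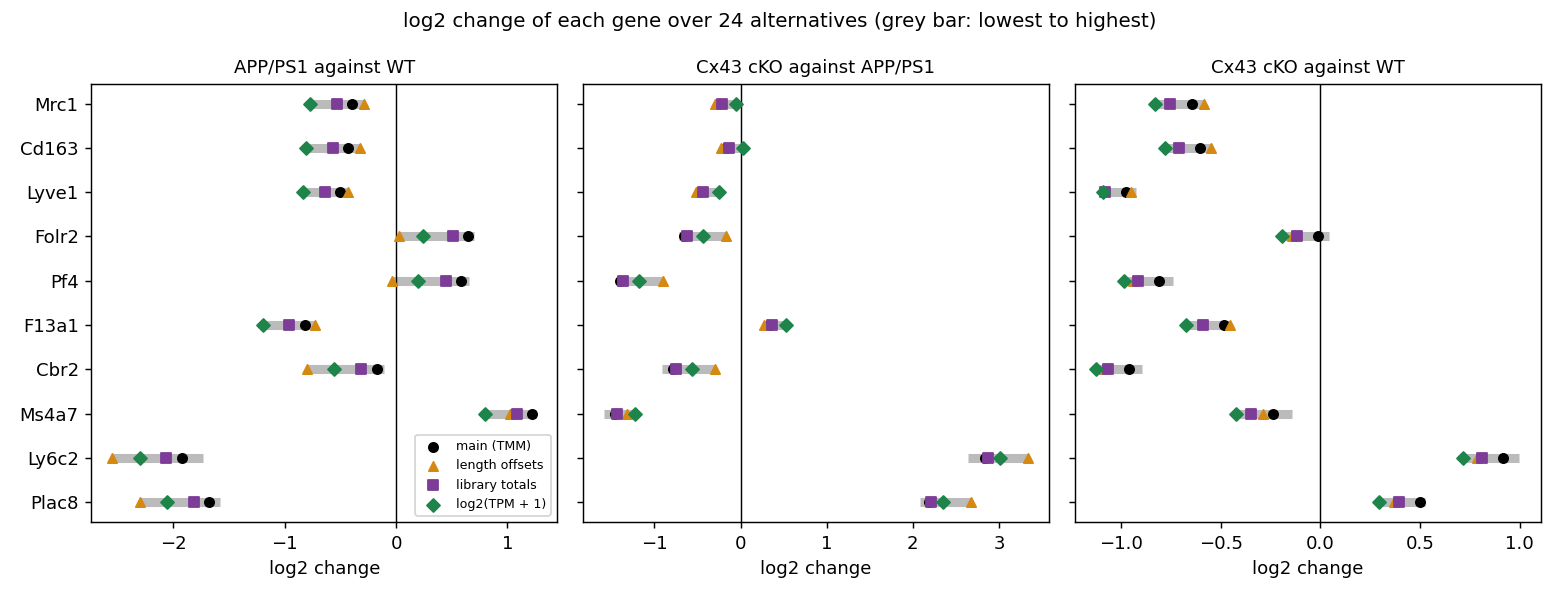
The log2 change of each gene in the 3 comparisons. Black circles are the TMM values, orange triangles those with length offsets, purple squares those with library totals, green diamonds those on log2(TPM + 1), and grey bars run from the lowest to the highest of 24 alternatives. The bars of Ly6c2 and Plac8 stay on a single side of 0, and those of Pf4 in APP/PS1 versus WT, of Cd163 in cKO versus APP/PS1 and of Folr2 in cKO versus WT reach across it.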

How the data were processed

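The labels' protocols give poly-A RNA and single-end reads of 50 nt. Per the submitters' processing notes, HISAT, Bowtie2, DESeq2 and the build GRCm38.p6 were used, and their roles are not given in the sources used here. The deposited table holds estimated counts with decimals, not scaled between libraries, and the authors' FPKM and TPM, per the file headers. The 21 other deposited value columns were not used. Libraries were assigned to WT, APP/PS1 and cKO by their titles. The members and lists were chosen with earlier results of these data known.

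Estimated counts were rounded and tested with the edgeR 4.0.16 quasi-likelihood test (R 4.3.3; TMM, filterByExpr, robust, all 9 libraries, a mean per group), with Benjamini-Hochberg adjustment over 14696 genes at 0.05. SE is the log2 change over the root of the F statistic. The biological coefficient of variation was 3.14%. Named genes are the 10 members, the called genes of the 2 longer lists with the largest changes and a mean of at least 1 CPM, the most abundant gene of other lists, and the nearest patterns. Some genes that this rule names are not reported here. Counts per gene limit precision. Libraries of a group differed beyond counting noise (mean chi-square per gene 1.80 to 3.54). Effective length came from counts and FPKM. Stretches of 50 bases were compared in GENCODE M21 transcripts. Alternatives included DESeq2 1.42.0, limma 3.58.1 (log2(FPKM + 1), log2(FPKM + 0.1) and log2(TPM + 1)), offsets over 10 length bins, a replicate block and leaving out each library. For APP/PS1 and WT the numbers were taken as pairing from the data alone, since deviations of all 3 same-numbered pairs correlated (r 0.138 to 0.264). Length offsets for marker lists and a sum without Ly6c1 were added after seeing the data. The fits were tested on simulated data.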

Additional observations from a re-analysis of the deposited data

How the results depend on the processing

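The number of members called stayed within 1.5 times except with a fold limit, but its split moved with length offsets, which gave 1 higher and 7 lower in APP/PS1 versus WT (3 and 6 without them), 3 and 6 in cKO versus APP/PS1 (3 and 7) and 2 and 7 in cKO versus WT (2 and 7). With at least a 2-fold change, 3 members were called in APP/PS1 versus WT, 4 in cKO versus APP/PS1 and 0 in cKO versus WT, where edgeR without the limit called 9 and DESeq2 8. The share of all genes passing the 2-fold limit is not given here, so those counts cannot be set against a background. In the 14 other settings that kept all libraries the counts were 8 to 10, and leaving out each library gave 9 to 10, 10 and 8 to 9. Of the values of single members under an alternative, 663 kept their sign and call, 33 lost the call, 15 gained it and 9 changed sign. Pf4 in APP/PS1 versus WT was -0.036 with length offsets, and also with the replicate block added. Cd163 in cKO versus APP/PS1 was 0.029 on log2(TPM + 1). Folr2 in cKO versus WT, not called, was 0.015 with DESeq2 size factors and with the DESeq2 test, and -0.0756 to 0.043 in the leave-one-out fits, while on log2(TPM + 1) it was called at -0.19 (limma adjusted p 0.0314). The cause was not tested.

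The log2 ratio of macrophage to monocyte genes in WT, APP/PS1 and cKO was 2.76, 4.19 and 1.45 with summed CPM, -0.13, 1.44 and -1.25 with F13a1 among the monocyte genes, 1.94, 3.85 and 0.40 without Plac8, and -1.57, 0.27 and -2.86 with the mean of log2(TPM + 0.1). The sets then hold other genes or weights by construction.

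For the comparisons with cKO replicate numbers did not count as pairing, since some same-numbered libraries had deviations correlated by less than 0.1 (lowest 0.0618). As a hint from the data, 8 of 9 libraries correlated best with their own number in both other groups. With the replicate block 10, 10 and 9 members were called, Cbr2 being gained in APP/PS1 versus WT at -0.17 (edgeR adjusted p 0.00604). No other call changed under the block. Members with few counts limit small changes most, as for Folr2 (128 to 219 counts per library).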
